A study of Mus musculus with 6 samples.

Results

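The MYC, MAX and MXD network was measured by RNAseq in activated mouse CD4+ T cells, as 10 of the 23420 gene rows of the deposited count table. The members are *Myc*, *Max*, *Mxd1*, *Mxd3*, *Mxd4*, *Mxi1*, *Mnt*, *Mga*, *Mlx* and *Mlxip*, taken by symbol, and all 10 passed the filter on low counts that left 10607 genes to test. The set was chosen by the level of *Mxd4*, which was higher with *Dyrk1a* shRNA than in both other groups, so those 2 differences are given as a description and with no test. The 6 libraries fall into 3 groups of 2, cells with *Dyrk1a* shRNA, cells with control shRNA and harmine, and cells with control shRNA alone. DYRK1A is a kinase, harmine is a plant alkaloid that inhibits DYRK kinases among other targets, and an shRNA is a hairpin RNA that directs the breakdown of a matching mRNA. The cultures set knockdown of *Dyrk1a* beside harmine.

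All groups were splenic CD4+CD62L+ cells of Balb/c mice aged 12 weeks, stimulated with plate-bound anti-CD3/28. Lentivirus with the scrambled (control) or the *Dyrk1a* hairpin was added after 24 h, medium with IL-2 was given another 24 h later, with 3.7 µM harmine in the harmine group only, and the cells were harvested 48 h after that. Both control groups thus carry a virus and a hairpin, and the sources used here list several hairpins against *Dyrk1a* without saying which went into RNAseq. The labels do not say whether replicates came from separate mice or cultures, so the spread between them may be technical.

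The libraries held 1096387 to 3747699 expected counts, the control shRNA libraries being the 2 smallest, and 1537 to 4821 of these fell on the 10 members. Levels are given as CPM, counts scaled to library size with TMM factors. *Dyrk1a* itself had 60.2 and 61.9 CPM with *Dyrk1a* shRNA, 74.8 and 77.6 CPM with harmine and 58.4 and 82.7 CPM with control shRNA. Its log2 fold change against control shRNA was -0.19 with a standard error of 0.21, so the knockdown was not detectable at the RNA level against the spread of the controls. The control libraries differed from each other more than other replicates did, with a chi-square per degree of freedom of 10.1, against 3.69 between the *Dyrk1a* shRNA and 4.02 between the harmine libraries. All 8 CD4 T cell markers were detected, with summed levels of 2503 to 2548, 2644 to 2781 and 2639 to 2679 CPM with *Dyrk1a* shRNA, harmine and control shRNA. The CD8 T cell and NK cell markers summed to 62.2 to 62.5, 50.4 to 61.7 and 49.0 to 104 CPM in the same order, with *Ncr1* at 0 in both harmine libraries and in both controls and *Klrb1c* at 0 in both controls, the shallowest libraries. Myeloid markers summed to 23.0 to 34.1, 22.4 to 35.2 and 23.6 to 60.9 CPM, B cell markers to 35.6 to 41.9, 28.6 to 30.9 and 34.5 to 46.4 CPM, and erythroid and platelet markers to 18.0 to 24.2, 19.3 to 19.7 and 22.8 to 34.5 CPM. The part of these cells in the values of the members was not tested, and fewer cells of a type cannot be told apart from less RNA per cell.

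The members are transcription factors with a basic helix-loop-helix leucine zipper that bind DNA as pairs. MYC pairs with MAX at E-boxes, of which CACGTG is the canonical form, and drives genes of growth, metabolism and ribosome production, and it is induced when T cells are activated. The MXD proteins (MXD1, MXI1, MXD3 and MXD4), MNT and MGA pair with MAX as well and oppose MYC, the MXD proteins and MNT by recruiting the SIN3-HDAC corepressor and MGA as part of a variant Polycomb complex. MXD proteins are known for their rise when cells leave the cell cycle and differentiate. MLX and its partner MLXIP (MondoA) form a parallel branch that responds to glucose-derived metabolites, and MLX can also pair with MXD1, MXD4 and MNT.

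The promoter windows are shown because the network's own binding sequence occurs in several of its members, *Mxd4* included. RefSeq windows on GRCm38.p6, 250 bases before to 50 after each gene's start, were matched for 9 members, all but *Myc*. The E-box CACGTG, which reads the same on both strands, was present in the windows of 4 of these 9 members (*Max*, *Mxd4*, *Mnt* and *Mlx*). These were 4 of the 11 windows of the members, or 36.4%, as *Mxi1* has several, against 7.15% of all 32851 windows in the table and 8.11% of the 19848 windows of genes in the count table. The first base of the motif lay at position -219 from the start in *Mxd4*, -123 in *Mnt*, -40 in *Mlx* and -3 in *Max*. The whole window of *Mxd4* (chr5:34187661-34187960, minus strand) and the 60 bases around the motif in *Max* (chr12:76962219-76962278, minus strand), *Mnt* (chr11:74830774-74830833, plus strand) and *Mlx* (chr11:101087223-101087282, plus strand) read, with the E-box in capitals:
Mxd4: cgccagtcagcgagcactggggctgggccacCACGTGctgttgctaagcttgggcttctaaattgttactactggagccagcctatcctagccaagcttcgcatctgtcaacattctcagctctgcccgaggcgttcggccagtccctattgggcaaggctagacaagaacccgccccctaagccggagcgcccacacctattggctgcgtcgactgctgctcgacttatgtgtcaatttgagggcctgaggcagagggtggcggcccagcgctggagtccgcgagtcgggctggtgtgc
Max: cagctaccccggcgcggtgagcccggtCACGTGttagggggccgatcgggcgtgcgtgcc
Mnt: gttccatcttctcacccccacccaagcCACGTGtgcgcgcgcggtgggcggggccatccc
Mlx: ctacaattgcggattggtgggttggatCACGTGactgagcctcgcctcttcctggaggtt
These matches describe the sequence only, and binding of the factors was not measured.

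*Mxd4*, an MXD protein that pairs with MAX, had the widest range of the 10 members, with a fold of 4.77 between its highest and its lowest library. It had 32.2 and 20.0 CPM in the *Dyrk1a* shRNA libraries, against 8.64 and 11.9 CPM with harmine and 7.53 and 6.75 CPM with control shRNA. Both *Dyrk1a* shRNA libraries lay above all 4 others, and both harmine libraries above both controls. As means, *Mxd4* had 26.1 ± 8.58 CPM with *Dyrk1a* shRNA, 10.3 ± 2.29 CPM with harmine and 7.14 ± 0.55 CPM with control shRNA (SD, n = 2 each). The gene is on chromosome 5 (GRCm38, 34173883 to 34187720, minus strand) and shares 514 exonic bases with the antisense gene *Gm42846*, which was not analysed here. As the sources used here state no strand in the counting, reads of the 2 genes there cannot be told apart. Its longest transcript has 6 exons and 3872 bases. The log2 fold change that the choice of genes rests on was 1.84 (standard error 0.38), or 3.58-fold, against control shRNA and 1.32 (standard error 0.30), or 2.50-fold, against harmine. In absolute size these lay above 99.7% and 99.5% of the genes tested in the same comparison. Over the single libraries left out, they ran from 1.48 to 2.15 against control shRNA and from 0.96 to 1.64 against harmine. As both *Dyrk1a* shRNA libraries lay above all 4 others, values above 0 were given in advance there. These ranges and ranks describe the values that chose the set.

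**Figure D1:**
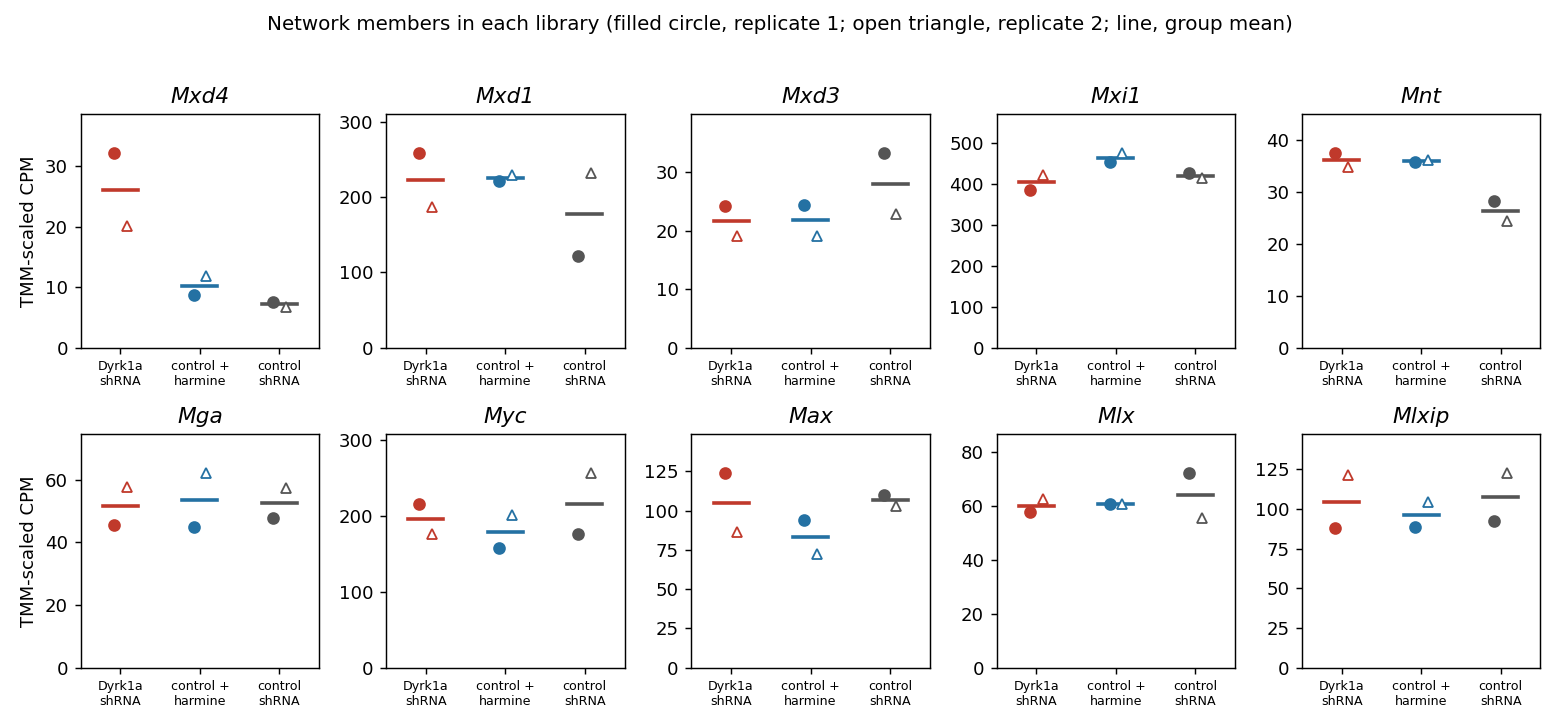
Levels of the 10 network members in TMM-scaled CPM (vertical axes, from 0) in each of the 6 libraries, grouped as *Dyrk1a* shRNA, control shRNA with harmine, and control shRNA. Lines are group means, and *Mxd4* stands out with 32.2 and 20.0 CPM in the *Dyrk1a* shRNA libraries and 6.75 to 11.9 CPM in the others.

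*Mxd4* was a low count in these libraries, which limits its precision. The counts behind the levels were 84 and 68 with *Dyrk1a* shRNA, 29 and 45 with harmine, and 12 and 8 with control shRNA. Exact Poisson 95% intervals, which cover counting error only, ran from 25.7 to 39.8 and from 15.6 to 25.4 CPM in the *Dyrk1a* shRNA libraries, from 5.79 to 12.4 and from 8.67 to 15.9 CPM in the harmine libraries, and from 3.89 to 13.2 and from 2.92 to 13.3 CPM in the controls. The intervals describe each library alone and do not cover the spread between libraries. With harmine against control shRNA, the comparison that the choice did not use, *Mxd4* had a log2 fold change of 0.52 (standard error 0.42, 95% interval -0.37 to 1.40, edgeR adjusted p = 0.938 after the Benjamini-Hochberg method).

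**Figure D2:**
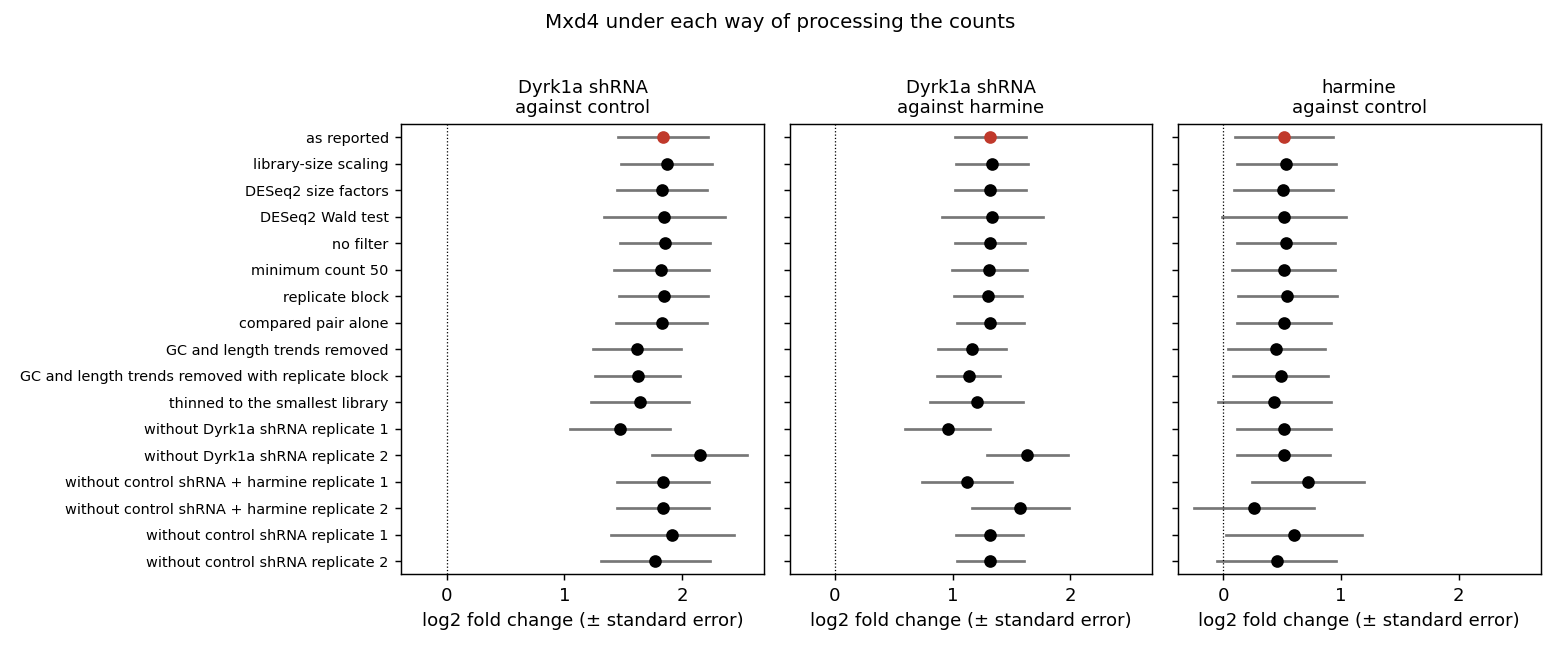
Log2 fold change of *Mxd4* (points) with its standard error (lines) under each way of processing the counts, with the reported value in red. *Mxd4* lay between 1.48 and 2.15 with *Dyrk1a* shRNA against control shRNA, between 0.96 and 1.64 against harmine, and between 0.26 and 0.72 with harmine against control shRNA.

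Over all 10 members, 0 passed an adjusted p of 0.05 with edgeR in any of the 3 comparisons, and 0 with the Wald test of DESeq2. The background was 0.0189% of genes called with *Dyrk1a* shRNA against control shRNA, 0.00943% against harmine and 0.00943% with harmine against control shRNA. At an unadjusted p under 0.05, and with *Mxd4* left aside in the first 2 comparisons because its values there chose the set, the count was 0 in all 3. The background at that limit was 7.69% of genes (3.10% higher, 4.59% lower), 5.73% (2.91% higher, 2.82% lower) and 5.30% (2.22% higher, 3.07% lower). Members whose groups did not overlap numbered 2 with *Dyrk1a* shRNA against control shRNA (*Mxd4* and *Mnt*, both higher), 2 against harmine (*Mxd4* higher, *Mxi1* lower) and 4 with harmine against control shRNA (*Mxd4*, *Mxi1* and *Mnt* higher, *Max* lower), where the background was 35.4% of genes (18.5% higher, 16.9% lower), 41.0% (20.2% higher, 20.8% lower) and 32.3% (16.4% higher, 15.9% lower). In the first 2 comparisons *Mxd4* is there by the choice of the set, which leaves only *Mnt* and only *Mxi1*. Members above 0 numbered 3, 5 and 5 of 10, where 48.3%, 49.9% and 47.5% of all genes were above 0. *Mxd4* is again among them by the choice of the set in the first 2 comparisons. The median log2 fold change of the members was -0.027, -0.0027 and -0.023 in the 3 comparisons, against -0.013, -0.0011 and -0.019 over all genes tested. The members' median turned with single libraries, to 0.14 without control shRNA replicate 2 in the first comparison, to 0.11 without *Dyrk1a* shRNA replicate 2 in the second, and to 0.074 without harmine replicate 1 or 0.095 without control shRNA replicate 2 in the third, where it was -0.13 without harmine replicate 2. The 2 comparisons with control shRNA share the same control libraries.

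**Figure D3:**
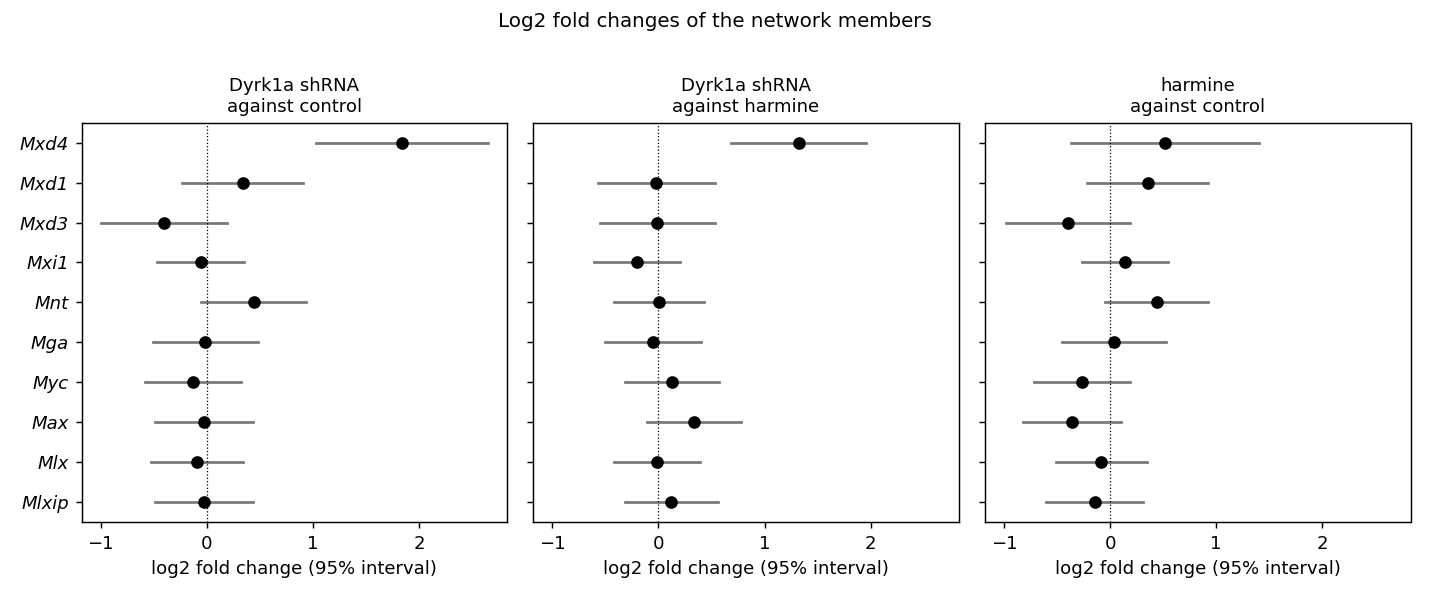
Log2 fold changes (points) and 95% intervals (lines) of the 10 members in the 3 comparisons. The genes were chosen for *Mxd4* in the first 2 panels, where it lies at 1.84 and 1.32, and every other member lies between -0.40 and 0.44.

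None of the other MXD genes had both *Dyrk1a* shRNA libraries above all 4 others. *Mxd4* has that pattern by the choice of the set, and the share of all genes with it was not counted. *Mxd1*, induced during differentiation of many blood cells, had 259 and 187 CPM with *Dyrk1a* shRNA, 221 and 229 CPM with harmine, and 122 and 233 CPM with control shRNA. The low value was that of control shRNA replicate 1, and the other control lay within or above both treated groups. The log2 fold change of *Mxd1* was 0.34 (standard error 0.26) with *Dyrk1a* shRNA and 0.36 (standard error 0.26, 95% interval -0.21 to 0.93, edgeR adjusted p = 0.938) with harmine, both against control shRNA. Both values depended on the control kept. Without control shRNA replicate 2 it was 0.87 with *Dyrk1a* shRNA and 0.89 with harmine, and without control shRNA replicate 1 it was -0.08 and -0.05.

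*Mxi1*, also known as MXD2 and the most abundant MXD gene here, had 387 and 422 CPM with *Dyrk1a* shRNA, 454 and 476 CPM with harmine and 427 and 415 CPM with control shRNA. Its 6 libraries spanned 1.23-fold, the narrowest range of the 10 members. Both harmine libraries lay above all 4 others, with a log2 fold change of 0.14 against control shRNA (standard error 0.19, 95% interval -0.26 to 0.55, edgeR adjusted p = 0.957), and *Dyrk1a* shRNA lay at -0.20 against harmine (standard error 0.19). Of all genes tested, 16.4% were higher with harmine than with control shRNA without overlap. Likewise 20.8% were lower with *Dyrk1a* shRNA than with harmine, each comparison taken alone. *Mxd3*, an MXD protein found in dividing cells, went the other way from *Mxd4*, with 24.1 and 19.2 CPM with *Dyrk1a* shRNA, 24.4 and 19.0 CPM with harmine, and 33.3 and 22.8 CPM with control shRNA. Its groups overlapped, and the log2 fold changes against control shRNA were -0.40 (standard error 0.28) with *Dyrk1a* shRNA and -0.39 (standard error 0.28, 95% interval -0.98 to 0.19, edgeR adjusted p = 0.938) with harmine. Without control shRNA replicate 1 they were -0.09 and -0.08. *Mxd3* shares 105 exonic bases at its end with *Prelid1* on the opposite strand of chromosome 13, and as the sources used here state no strand in the counting, reads there cannot be told apart. *Prelid1* had 643 to 987 CPM over the 6 libraries.

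Added up per kilobase of the longest annotated transcript, the 4 MXD genes had 159 and 143 CPM per kilobase with *Dyrk1a* shRNA, 158 and 161 with harmine, and 138 and 151 with control shRNA. The groups were close, and *Mxi1* and *Mxd1* made up most of the sum. *Mxd4* was 5.24% and 3.61% of it with *Dyrk1a* shRNA, 1.41% and 1.90% with harmine, and 1.41% and 1.15% with control shRNA, whereas *Mxi1* was 48.3% to 61.5% over the 6 libraries. The MXD sum relative to *Myc* was 1.71 and 1.90 with *Dyrk1a* shRNA, 2.35 and 1.87 with harmine, and 1.83 and 1.38 with control shRNA, and *Dyrk1a* shRNA overlapped with both other groups.

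*Mnt*, the antagonist that most cell types carry at all times, was the member with the next largest difference from control shRNA in both treated groups. It had 37.5 and 34.8 CPM with *Dyrk1a* shRNA, 35.8 and 36.2 CPM with harmine, and 28.2 and 24.5 CPM with control shRNA. All 4 treated libraries lay above both controls. Of all genes tested, 18.5% with *Dyrk1a* shRNA and 16.4% with harmine lay above control shRNA without overlap, each comparison taken alone. The log2 fold change against control shRNA was 0.44 (standard error 0.23) with *Dyrk1a* shRNA and 0.44 (standard error 0.23, 95% interval -0.05 to 0.93) with harmine, where it did not pass (edgeR adjusted p = 0.928). Between *Dyrk1a* shRNA and harmine it was 0.0051 (standard error 0.20, 95% interval -0.42 to 0.43), a direction that turned under several of the alternatives. The *Mnt* transcript has a GC content of 59.5%, above 94.6% of genes tested, and across genes genes richer in GC tended to higher fold changes with *Dyrk1a* shRNA (Spearman's rho 0.340 against control shRNA and 0.417 against harmine, 9990 genes, which are not independent replicates), while those with harmine did not (0.00100). With trends in GC content and length removed from each library, *Mnt* was at 0.17 (standard error 0.23) with *Dyrk1a* shRNA and at 0.40 (standard error 0.23) with harmine against control shRNA. *Mxd4*, with a GC content of 55.6%, above 78.8% of genes, was then at 1.62 (standard error 0.37) and 1.17 (standard error 0.29) with *Dyrk1a* shRNA against control shRNA and against harmine. These *Mxd4* values belong to the comparisons that chose the set. The part of GC content in the differences of *Mnt* and *Mxd4* was not tested.

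*Mga*, a very large protein that pairs with MAX and also has a T-box, had 45.6 and 57.5 CPM with *Dyrk1a* shRNA, 45.0 and 62.1 CPM with harmine, and 47.7 and 57.4 CPM with control shRNA. The 3 groups covered nearly the same range. The log2 fold change was -0.013 (standard error 0.23) with *Dyrk1a* shRNA and 0.039 (standard error 0.23, 95% interval -0.45 to 0.53, edgeR adjusted p = 0.989) with harmine, against control shRNA.

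*Myc*, the activator of the network, had 216 and 177 CPM with *Dyrk1a* shRNA, 158 and 201 CPM with harmine, and 176 and 257 CPM with control shRNA. The groups overlapped throughout, and the spread between the controls, 0.54 on the log2 scale, was larger than either difference between groups. Against control shRNA the log2 fold change was -0.13 (standard error 0.21, 95% interval -0.59 to 0.32) with *Dyrk1a* shRNA and -0.27 (standard error 0.21, 95% interval -0.72 to 0.19, edgeR adjusted p = 0.938) with harmine. Without control shRNA replicate 1 these were -0.40 and -0.52, and without control shRNA replicate 2 they were 0.16 and 0.026. *Max*, the common partner, had 124 and 86.1 CPM with *Dyrk1a* shRNA, 94.2 and 72.1 CPM with harmine, and 110 and 103 CPM with control shRNA. Both harmine libraries lay below both controls, with a log2 fold change of -0.36 (standard error 0.22, 95% interval -0.82 to 0.10, edgeR adjusted p = 0.928), whereas *Dyrk1a* shRNA lay on both sides of the controls, at -0.027 (standard error 0.22). Against harmine, *Dyrk1a* shRNA lay at 0.33 for *Max* (standard error 0.21) with overlapping groups. The *Myc* relatives *Mycn* and *Mycl1* and the *Mlxip* relative *Mlxipl* had at most 11 counts in any library and were not tested.

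*Mlx* had 57.9 and 62.5 CPM with *Dyrk1a* shRNA, 60.8 and 60.7 CPM with harmine, and 72.2 and 55.7 CPM with control shRNA. Both treated groups lay within the range of the controls, with log2 fold changes of -0.10 (standard error 0.20) with *Dyrk1a* shRNA and -0.08 (standard error 0.20, 95% interval -0.51 to 0.34, edgeR adjusted p = 0.978) with harmine. *Mlx* shares 385 exonic bases with *Psmc3ip* on the opposite strand of chromosome 11, a gene with 1.77 to 7.53 CPM in these libraries. *Mxi1* shares 194 exonic bases with *Gm10197* and *Mlxip* 267 with *Gm15747*, which were not analysed here. Reads in these shared stretches cannot be told apart either. *Mlxip*, the partner that carries the response to glucose metabolites, had 87.7 and 121 CPM with *Dyrk1a* shRNA, 88.2 and 105 CPM with harmine, and 92.3 and 122 CPM with control shRNA. Its groups overlapped too, at -0.027 (standard error 0.22) and -0.15 (standard error 0.22, 95% interval -0.60 to 0.31, edgeR adjusted p = 0.962). *Txnip*, a target gene of the pair that restrains glucose uptake, had 304 and 277 CPM with *Dyrk1a* shRNA, 255 and 246 CPM with harmine, and 214 and 310 CPM with control shRNA, and *Arrdc4*, the other target listed, had 8.16 to 17.7 CPM. Neither passed an adjusted or an unadjusted p of 0.05 with edgeR in any comparison, and 0 passed with DESeq2.

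Compared per kilobase of the longest transcript, the members differed far more from each other than between groups. The order rests on annotated lengths, from 1327 bases for *Mxd3* to 13931 for *Mga*, and which transcripts the cells express was not analysed. *Mxi1* (85.4 CPM per kilobase as a mean of 6 libraries) and *Myc* (84.5) came first and overlapped. They were followed by *Max* (50.5) and *Mxd1* (44.7), which overlapped, then *Mlx* (31.4), which overlapped with *Mxd1* at its low end, and then *Mxd3* (17.9) and *Mlxip* (14.1), which overlapped. *Mnt* (7.15), *Mga* (3.77) and *Mxd4* (3.75) came last. *Mnt* and *Mga* did not overlap, with 5.33 to 8.18 and 3.23 to 4.45 CPM per kilobase. *Mxd4* ran from 1.74 to 8.31 CPM per kilobase and overlapped with both, since it stood above *Mga* in both *Dyrk1a* shRNA libraries (8.31 and 5.18 against 3.27 and 4.13 CPM per kilobase) and below it in both controls (1.95 and 1.74 against 3.42 and 4.12 CPM per kilobase).

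**Figure D4:**
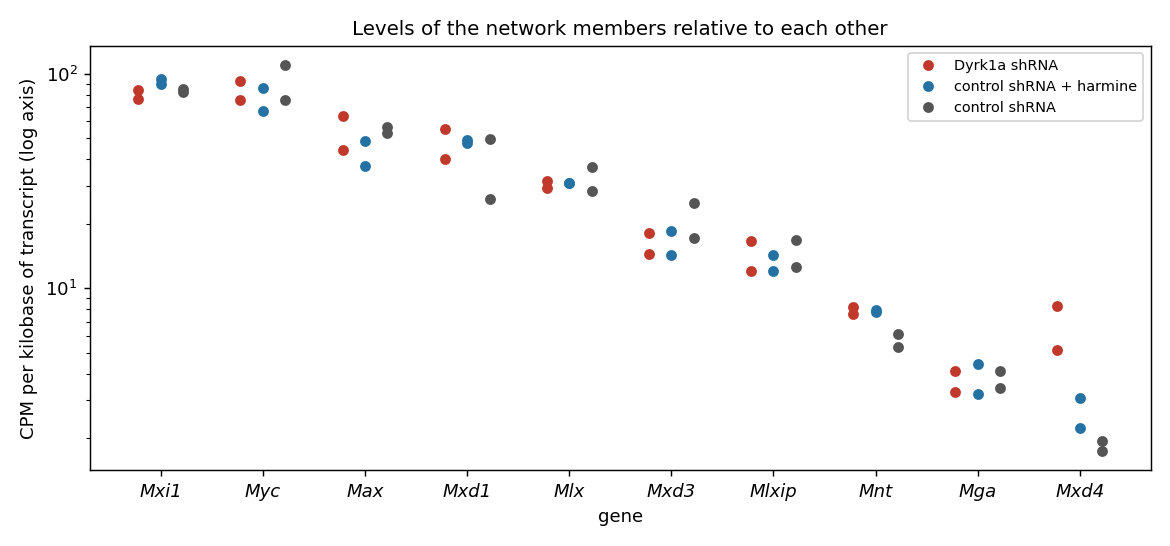
Level of each member in CPM per kilobase of its longest transcript (log axis) in the 6 libraries, in order of the mean over all libraries. *Mxi1* and *Myc* lie at the top with means of 85.4 and 84.5, and *Mxd4* at the bottom with 1.74 to 8.31.

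The genes that MYC induces showed no common direction. Of 48 listed, all tested, 25 were above 0 with *Dyrk1a* shRNA against control shRNA (median log2 fold change 0.0068, or 0.15 without control shRNA replicate 1). Against harmine 27 were (median 0.063, or 0.0044 at a minimum count of 50, -0.00047 with GC and length trends removed and -0.021 after thinning), and with harmine against control shRNA 26 were (median 0.014, or 0.10 without control shRNA replicate 1). With edgeR and with DESeq2 0 passed, and at an unadjusted p under 0.05 there were 1 higher and 1 lower, 1 higher and 1 lower, and 1 higher and 2 lower in these comparisons. Over all genes tested, 7.69%, 5.73% and 5.30% passed that unadjusted limit. *Pkm*, a pyruvate kinase of glycolysis, had 4052 and 3408 CPM with *Dyrk1a* shRNA, 3116 and 3031 CPM with harmine, and 2722 and 2911 CPM with control shRNA, and *Npm1*, a nucleolar chaperone, had 1397 and 1120, 1817 and 1482, and 1469 and 1282 CPM in the same order. *Nme1*, a nucleoside diphosphate kinase, had 62.8 and 62.5 CPM with *Dyrk1a* shRNA, 65.9 and 68.1 CPM with harmine, and 139 and 69.2 CPM with control shRNA, so that its log2 fold changes of -0.75 and -0.65 came with a wide spread between the controls. *Tfrc*, the transferrin receptor, had 259 and 366 CPM with *Dyrk1a* shRNA, 406 and 506 CPM with harmine, and 373 and 468 CPM with control shRNA. Of 6 genes that MYC represses, 5 were tested. With *Dyrk1a* shRNA against control shRNA 1 was above 0 (median -0.33, or 0.16 without control shRNA replicate 1), and with harmine 3 were (median 0.024, or -0.35 without control shRNA replicate 2), with the cell cycle inhibitor *Cdkn1b* at 67.8 and 54.2, 99.6 and 71.3, and 112 and 53.2 CPM in the same order of groups. *Ndrg1*, the 1 above 0 with *Dyrk1a* shRNA against control shRNA, had 943 and 810, 924 and 864, and 667 and 779 CPM. With *Dyrk1a* shRNA against harmine 1 of the 5 was above 0 (median -0.079).

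**Figure D5:**
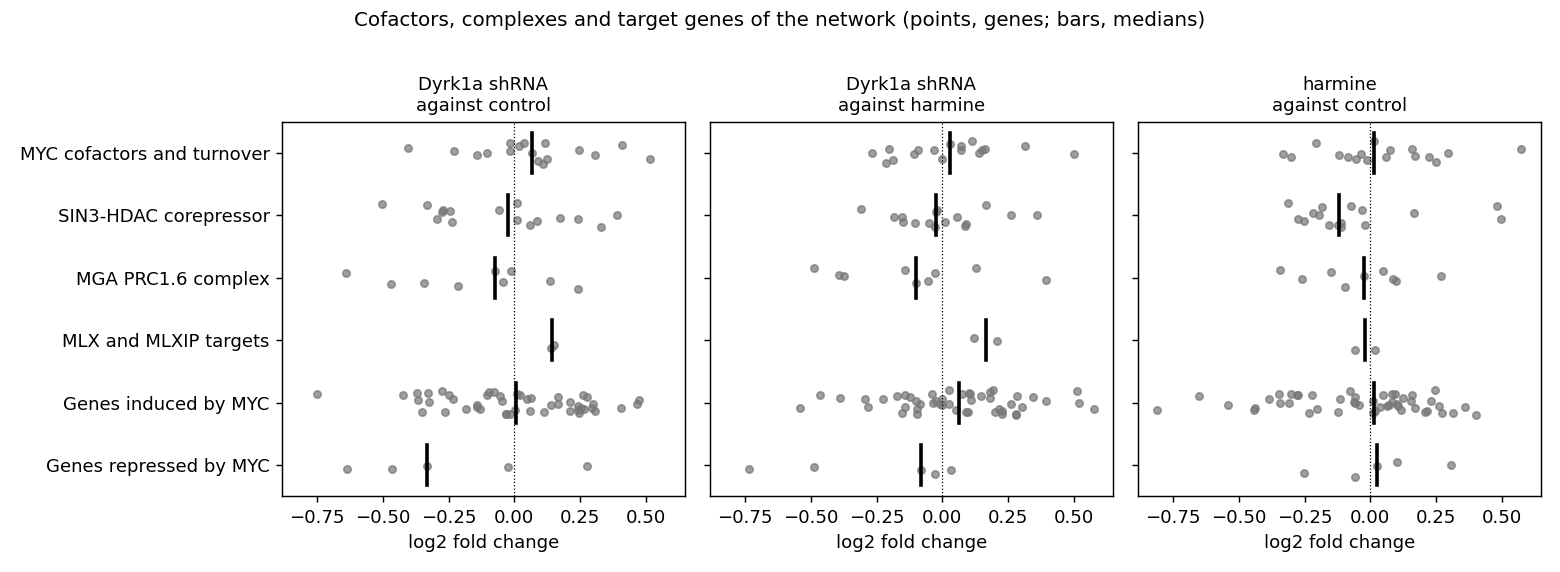
Log2 fold changes of cofactors, complexes and target genes of the network in the 3 comparisons. Points are single genes and bars are list medians. The 48 genes induced by MYC have medians of 0.0068, 0.063 and 0.014.

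The partner complexes of the network were also measured, and 0 of their genes passed with edgeR or with DESeq2. At an unadjusted p under 0.05, edgeR had 1 cofactor, 2 SIN3-HDAC genes and 1 Polycomb gene with *Dyrk1a* shRNA against control shRNA. Against harmine it had 1 cofactor, and with harmine against control shRNA 1 SIN3-HDAC gene. Over all genes tested, 7.69%, 5.73% and 5.30% passed that limit in these comparisons. Of 17 cofactors and turnover factors of MYC, 11 were above 0 with *Dyrk1a* shRNA (median 0.066, or -0.074 without *Dyrk1a* shRNA replicate 2, 0.19 without control shRNA replicate 2 and -0.047 with trends removed and a replicate block) and 9 with harmine (median 0.015, or 0.15 without control shRNA replicate 2) against control shRNA. *Zbtb17*, the zinc finger partner through which MYC represses genes, had 50.6 and 43.9 CPM with *Dyrk1a* shRNA, 29.2 and 37.2 CPM with harmine, and 30.1 and 36.3 CPM with control shRNA. Both *Dyrk1a* shRNA libraries lay above all 4 others, with log2 fold changes of 0.52 (standard error 0.23) against control shRNA and 0.50 (standard error 0.21) against harmine. Neither passed (edgeR adjusted p = 0.627 and 0.830), and the gene was named for its large change within the list. Over all genes tested, 18.5% lay above control shRNA and 20.2% above harmine without overlap. These shares take each comparison alone, and the share above both groups at once was not counted. Of 16 SIN3-HDAC genes, 8 were above 0 with *Dyrk1a* shRNA (median -0.023, or -0.13 and -0.12 without its replicate 1 and 2 and -0.13 with GC and length trends removed) and 3 with harmine (median -0.12). *Rbbp7*, a histone-binding subunit, had 146 and 136 CPM with *Dyrk1a* shRNA, 158 and 145 CPM with harmine, and 114 and 100 CPM with control shRNA, and *Arid4b*, a further subunit, had 58.2 and 66.3, 71.8 and 82.7, and 95.4 and 81.0 CPM. Of 9 genes of the Polycomb complex that MGA belongs to, 2 were above 0 with *Dyrk1a* shRNA (median -0.075, or -0.23 without control shRNA replicate 1) and 4 with harmine (median -0.022, or 0.093 after thinning), with the heterochromatin protein gene *Cbx3* at 135 and 130, 187 and 156, and 211 and 154 CPM.

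The genes whose log2 CPM followed *Mxd4* most closely over the 6 libraries were *Usp39*, a splicing factor (Pearson's r 0.995), *Nucb1*, a calcium-binding protein of the Golgi (0.992), *Trim28*, a corepressor (0.991), *Tcf25* (0.990) and *Trim3* (0.982). They were taken from 9675 genes, 33 of which had an r of at least 0.95, and all share the same 6 libraries. As they were picked for following *Mxd4*, higher levels with *Dyrk1a* shRNA come with the choice and are no separate result. Their changes were smaller than that of *Mxd4*. *Trim28* had 440 and 377 CPM with *Dyrk1a* shRNA, 319 and 339 CPM with harmine, and 309 and 287 CPM with control shRNA, with log2 fold changes of 0.45 (standard error 0.19) against control shRNA and 0.31 (standard error 0.18) against harmine. Among the members, *Mnt* was the closest to *Mxd4* (r 0.705).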

How the data were processed

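The authors made cDNA from polyA RNA with poly-dT primers, built Nextera libraries, sequenced them on a MiSeq, aligned reads to mm10 with TopHat and estimated expected counts per gene with RSEM (TopHat2 2.0.13, RSEM and DESeq in the submitters' processing notes). They deposited these expected counts without normalization, with replicates kept apart. RSEM divided some reads between genes, so *Mxd3*, *Mga* and *Mlxip* have fractional values. The RSEM version and the annotation release are not given in the sources used here.

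Expected counts were rounded for edgeR 4.0.16 under R 4.3.3 (TMM, filterByExpr at its minimum count of 10, quasi-likelihood test with robust fit on 3 group means over all 6 libraries, two-sided, Benjamini-Hochberg over 10607 genes, threshold 0.05). Standard errors are the log2 fold change over the root of F, and intervals are at 95%. Log2 CPM used a prior count of 2. The code was tested on simulated data. Positions, lengths and GC content come from GENCODE M21 on GRCm38, the assembly of mm10, matched by symbol for 93.0% of genes, and promoters from RefSeq. *Mycl*, *Adgre1* and *Hbb-bs* were read under older symbols.

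The members and gene lists were chosen with earlier results of these data known. All members were named, from each other list the 3 genes of highest mean CPM and the 2 with the largest change in each comparison were eligible, and the 5 genes most correlated with *Mxd4* at a mean CPM of at least 5 were named, with *Dyrk1a* and genes that overlap a member. Alternatives were other scalings, DESeq2 1.42.0, other filters, a replicate block, the compared pair alone, trends in GC content and length removed (natural splines, 4 degrees of freedom), thinning to the smallest library, and leaving out each library.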

Additional observations from a re-analysis of the deposited data

How the results depend on the processing

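Each log2 fold change of the 10 members was recomputed under 10 alternatives and without each of the 6 libraries. With harmine against control shRNA, 100 of 100 values under the alternatives kept their direction and their side of the threshold, and with *Dyrk1a* shRNA 92 of 100 against control shRNA and 86 of 100 against harmine did. *Mxd4* stayed above 0 in all of them, which was largely given in advance, since its groups did not overlap in any comparison. Calls of *Mxd4* with *Dyrk1a* shRNA rest on the values that chose the set and count for nothing here. With it included, the number of members called with *Dyrk1a* shRNA was 1 against control shRNA and 1 against harmine when no filter was used, in both cases *Mxd4*. Without single libraries it was 0 to 2 against control shRNA (*Mxd1* beside *Mxd4*, without control shRNA replicate 2), and with harmine against control shRNA 0 to 1 (*Mxd1*, without the same library). The cause was not tested.

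Over all genes, 2 were called with *Dyrk1a* shRNA against control shRNA, and 28 with no filter, 5 when the compared pair was fitted alone, 4 after thinning, 4 with GC and length trends removed and a replicate block, and 1 to 439 without single libraries, the largest without control shRNA replicate 2. Against harmine, 1 was called, and 3 with library-size scaling, 2 in DESeq2, 22 with no filter, 4 in the compared pair alone, 6 with trends removed and a replicate block, 0 with the replicate block, and 0 to 5 without single libraries. With harmine against control shRNA, 1 was called, and 3 in DESeq2, 20 with no filter, 0 at a minimum count of 50, 0 in the compared pair alone, 6 with trends removed and a replicate block, 0 with the replicate block, and 1 to 291 without single libraries, the largest again without control shRNA replicate 2.

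With *Dyrk1a* shRNA against control shRNA, *Max* was at 0.0092 and *Mga* at 0.196 with GC and length trends removed, and at 0.0081 and 0.177 with the replicate block as well. *Mga* was also at 0.0052 with library-size scaling, 0.0071 with no filter and 0.071 after thinning. Against harmine, with trends removed, *Mnt* was at -0.229, *Mga* at 0.028, *Mlx* at 0.014 and *Mlxip* at -0.039, and with the replicate block as well at -0.228, 0.028, 0.015 and -0.046. *Mnt* was at -0.00092 at a minimum count of 50 and -0.106 after thinning, *Mxd3* at 0.0082 with library-size scaling and 0.354 after thinning, and *Mlx* at 0.0072 with library-size scaling. Without single libraries, the values against control shRNA ran with *Dyrk1a* shRNA from -0.306 to 0.210 for *Max*, -0.204 to 0.139 for *Mga*, -0.256 to 0.105 for *Mlx*, -0.291 to 0.190 for *Mlxip*, -0.078 to 0.871 for *Mxd1*, -0.130 to 0.0042 for *Mxi1* and -0.396 to 0.158 for *Myc*, and with harmine from -0.219 to 0.247 for *Mga*, -0.248 to 0.118 for *Mlx*, -0.350 to 0.065 for *Mlxip*, -0.055 to 0.888 for *Mxd1* and -0.523 to 0.026 for *Myc*. With *Dyrk1a* shRNA against harmine they ran from -0.261 to 0.201 for *Mga*, -0.072 to 0.041 for *Mlx*, -0.138 to 0.330 for *Mlxip*, -0.048 to 0.060 for *Mnt*, -0.271 to 0.199 for *Mxd1*, -0.183 to 0.179 for *Mxd3* and -0.031 to 0.318 for *Myc*. Where a group is left with 1 library, that library is assumed to vary like the others.

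The groups share replicate numbers 1 and 2, but nothing says that a number marks a shared mouse or culture. Deviations of same-numbered libraries correlated at 0.240 (*Dyrk1a* shRNA and harmine), 0.020 (*Dyrk1a* shRNA and control shRNA) and 0.120 (harmine and control shRNA) over 10607 genes. The values of 0.240 and 0.120 exceed the limit of 0.1 set for this check and are no ground for ignoring the numbers. The main fit left them out because no label gives them a meaning, and the replicate block was fitted as an alternative. The standard errors given above come from fits without the block. Whether the groups share a replicate effect was not tested. With the replicate block, *Mxd4* was at 1.84 and 1.30 with *Dyrk1a* shRNA and at 0.54 with harmine, and 0 members were called in each comparison. *Mxd4* had 8 to 12 counts in the controls, and after thinning to the smallest library it was at 1.64 and 1.20 with *Dyrk1a* shRNA and at 0.44 with harmine.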

Other observations

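In 4 of the 10 members the same replicate number was the higher one in all 3 groups. Replicate 2 minus replicate 1, on the log2 scale, was -0.52, -0.39 and -0.09 for *Max* and -0.33, -0.36 and -0.55 for *Mxd3* with *Dyrk1a* shRNA, harmine and control shRNA, and 0.33, 0.46 and 0.27 for *Mga* and 0.47, 0.25 and 0.41 for *Mlxip*. The members' count is close to the share over all 10552 genes with counts in every library, 35.2% of which had the same replicate higher in all 3 groups. Across genes, replicate 2 minus replicate 1 rose with transcript length (Spearman's rho 0.16, 0.148 and 0.391 in the same order of groups). The longest transcripts of *Mga* and *Mlxip* have 13931 and 7303 bases, and those of *Max* and *Mxd3* 1942 and 1327. The part of length in these differences was not tested.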
